A study of Mus musculus with 12 samples.

Results

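The proteasome is the barrel-shaped protease that degrades most ubiquitin-tagged proteins of the cytosol and nucleus. A core particle of stacked alpha and beta rings holds the proteolytic sites inside, and a regulatory particle on its end, made of a base and a lid, binds ubiquitin chains, removes them, unfolds the substrate and opens the gate of the alpha ring. In wasting skeletal muscle the ubiquitin and proteasome pathway is known as a main route of myofibrillar protein breakdown. The 41 genes described here were chosen by symbol, as the genes of the core, base and lid subunits with the activators, an inhibitor and assembly factors of the proteasome, and all 41 were measured, among 19434 genes tested. Expression was measured in whole gastrocnemius, a limb muscle, and in whole heart.

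The mice were Balb/c-DBAj hybrids of 10 to 11 weeks. C26 mice received 1000000 cells of C26, a mouse colon carcinoma whose growth brings on cachexia, a loss of muscle and fat mass, under the skin of the upper right flank in 100 µl of RPMI medium with penicillin and streptomycin. Non-tumour-bearing (NTB) mice received 100 µl of that medium without cells. Each of the 4 groups, C26 gastrocnemius, NTB gastrocnemius, C26 heart and NTB heart, had 3 arrays, described as biological replicates by the submitters, and the muscles were taken from different cohorts of mice, so that a difference between muscles is also one between cohorts. The time between inoculation and collection is not given in the sources used here. Values are log2 expression values as deposited. Every difference below is C26 minus NTB in mean log2 value with its standard error (SE) after ±, unless stated otherwise. The SE (n = 3 arrays per group) is that of the limma fit, with the variance of a gene pooled over the 4 groups. For C26 minus NTB it is therefore the same in both muscles, even where their spread differs. Psmb2, for example, had an SE of 0.21 in each muscle. Its standard deviations (SD) in C26 and NTB were 0.51 and 0.34 in gastrocnemius and 0.06 and 0.02 in heart. The intervals given below rest on the same SE. "Rose", "fell" and "called" mean a limma adjusted p under 0.05.

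The labelled tissues matched their defining markers. The mean log2 value of 9 skeletal muscle markers was 12.91 to 13.40 in the gastrocnemius arrays and 7.11 to 7.41 in the hearts, and that of 9 heart muscle markers was 12.02 to 12.56 in the hearts and 6.57 to 7.29 in the gastrocnemius. C26 gastrocnemius array 3 stood apart. Its 7 T and B cell markers averaged 6.25 against 4.81 to 5.05 in the other 5 gastrocnemius arrays. Its 5 fat cell markers averaged 8.04, against 7.48 on C26 array 2 and 6.69 to 6.88 on C26 array 1 and the NTB arrays. Its skeletal muscle markers had the lowest mean of the gastrocnemius arrays, 12.91. The median C26 minus NTB difference over all genes tested was 0.00 in gastrocnemius and 0.01 in heart.

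In C26 gastrocnemius 25 of the 41 proteasome genes rose and 1 fell, where 6.44% of all genes tested rose and 5.44% fell. The median difference of the 41 genes was 0.61. With the gastrocnemius arrays fitted alone, where 4.65% of all genes were called in either direction, 15 rose and Psme1 fell. The 10 calls lost there were those of Psma1, Psma2, Psma6, Psmb1, Psmc4, Psmc5, Psmd7, Psmd12, Psmd13 and Psmd14. The rise was seen in the alpha ring, the base and the lid, with 23 of 25 genes called. In the beta ring 2 of 7 genes were called higher, but 6 of the 7 differences were above 0 and their median was 0.50. None of the 9 genes of assembly factors, activators and inhibitor rose, and of these the activator Psme1 fell. In C26 heart 0 of the 41 genes were called in either direction. The arrays measure RNA of whole tissue, so more transcript per fibre cannot be told apart from a change in the share of the cells that hold it. The plot of 8 genes by array shows the subunits with large rises beside the catalytic subunits and Psme1.

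**Figure D1:**
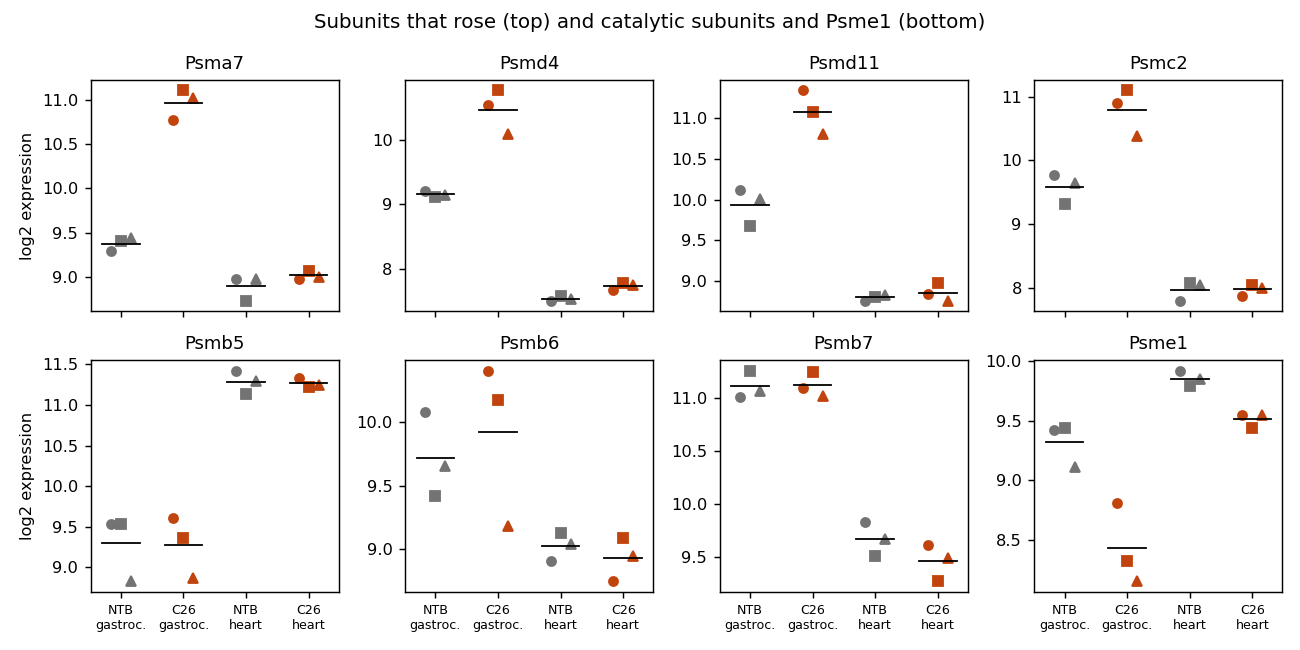
Log2 expression of 8 proteasome genes in the 12 arrays (circle, square and triangle for arrays 1, 2 and 3 of a group), with NTB in grey, C26 in red and a line at each group mean. Each panel has its own vertical scale. Psma7, Psmd4, Psmd11 and Psmc2 were higher on all 3 C26 gastrocnemius arrays than on any NTB gastrocnemius array, the catalytic subunits Psmb5, Psmb6 and Psmb7 overlapped between those groups, and Psme1 was lower on all 3 C26 arrays.

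The alpha ring, whose 7 subunits form the outer rings of the core and carry its gate, had 6 of 7 genes called higher in gastrocnemius and a median difference of 0.67. Psma7 read 10.77, 11.11 and 11.02 on C26 gastrocnemius arrays 1 to 3 and 9.29, 9.40 and 9.44 on the NTB arrays. The groups were more than a log2 unit apart with little spread within either, and Psma7 rose by 1.59 ± 0.12 (3.00-fold, adjusted p = 6.75e-07), with 0.278% of all genes tested showing a larger difference. Psma4 read 10.90, 10.79 and 10.67 on the C26 arrays and 9.90, 9.83 and 9.87 on the NTB arrays. The groups did not overlap, and Psma4 rose by 0.92 ± 0.11 (adjusted p = 4.72e-05). Psma5 read 9.55, 9.58 and 9.19 in C26 and 8.46, 8.60 and 8.36 in NTB, again without overlap. It rose by 0.97 ± 0.13 (adjusted p = 0.000153), and a second set of Psma5 probes on the array gave 0.64 ± 0.19 (adjusted p = 0.079 when all rows were tested). Smaller rises were those of Psma2 (0.67 ± 0.18), Psma1 (0.62 ± 0.17) and Psma6 (0.61 ± 0.12). With the gastrocnemius arrays fitted alone these 3 were not called, which left 3 of 7, and the calls of Psma1 and Psma2 were each lost under 6 of 20 alternatives. Psma3 was the alpha subunit that was not called, at 0.33 ± 0.12 (adjusted p = 0.116), although its 3 C26 arrays lay above the NTB arrays. The lowest C26 and the highest NTB value both round to 10.49. Its other 2 sets of probes gave 0.33 and 0.35.

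The beta ring holds the proteolytic sites, on Psmb5 (chymotrypsin-like), Psmb6 (caspase-like) and Psmb7 (trypsin-like), and none of these 3 catalytic subunits was called in gastrocnemius. Psmb5 read 9.61, 9.36 and 8.87 on the C26 arrays and 9.54, 9.54 and 8.83 on the NTB arrays. The groups covered nearly the same range, with array 3 lowest in both, and the difference was -0.02 ± 0.20 (95% interval -0.44 to 0.39). Psmb7 read 11.10, 11.25 and 11.02 in C26 and 11.01, 11.26 and 11.07 in NTB. Its values also overlapped throughout, and its difference of 0.01 ± 0.13 had a narrower interval, -0.26 to 0.28. The intervals of Psmb5 and Psmb7 both leave out 0.61, the median of the 41 genes. Psmb6 read 10.40, 10.17 and 9.18 in C26 and 10.08, 9.42 and 9.65 in NTB. Here C26 arrays 1 and 2 were above every NTB array and array 3 was below every one, so that the difference of 0.20 ± 0.25 had a wide interval (-0.33 to 0.72). Without C26 array 3 Psmb6 was called higher, at 0.56 (adjusted p = 0.0251), Psmb5 stood at 0.18 (adjusted p = 0.553) and Psmb7 was not called.

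Of the 4 beta subunits without a proteolytic site, 2 rose. Psmb3 read 11.28, 11.14 and 10.59 on the C26 gastrocnemius arrays and 10.18, 10.24 and 10.10 on the NTB arrays. Its groups did not overlap, and it rose by 0.83 ± 0.16 (adjusted p = 0.00214). Psmb1 read 9.62, 9.60 and 9.01 in C26 and 8.92, 8.75 and 8.79 in NTB. C26 array 3 lay just above the highest NTB array, and Psmb1 rose by 0.59 ± 0.15 (adjusted p = 0.0149), a call lost under 3 of 20 alternatives. Psmb4 (0.66 ± 0.22, adjusted p = 0.0712) and Psmb2 (0.50 ± 0.21, adjusted p = 0.165) were not called. With the replicate number as a block both were called (adjusted p = 0.000849 and 0.00956), and both were called without C26 array 3 (0.84 and 0.71).

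The 6 ATPases of the base, which unfold substrates and thread them into the core, had 5 genes called higher and a median of 0.72. Psmc2 read 10.90, 11.10 and 10.39 on the C26 gastrocnemius arrays and 9.77, 9.32 and 9.65 on the NTB arrays. The groups did not overlap, and Psmc2 rose by 1.21 ± 0.17 (2.32-fold, adjusted p = 0.000218). Psmc1 read 10.54, 10.86 and 10.30 in C26 and 9.77, 9.69 and 9.82 in NTB. It rose by 0.81 ± 0.13 (adjusted p = 0.000775), and its second set of probes gave 0.82. The other ATPases called were Psmc4 (0.76 ± 0.16), Psmc3 (0.68 ± 0.12) and Psmc5 (0.53 ± 0.14). The call of Psmc5 was lost under 7 of 20 alternatives and that of Psmc4 under 1. Psmc6 was not called (0.43 ± 0.20, adjusted p = 0.226), and its C26 array 3 (9.86) lay among the NTB arrays (9.77 to 10.08). Without that array Psmc6 was called (0.70, adjusted p = 0.00374).

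All 4 non-ATPase genes of the base rose, with a median of 0.92. Psmd4 and Adrm1 encode ubiquitin receptors of the regulatory particle, and Psmd1 and Psmd2 encode its large scaffold subunits, which also dock ubiquitin-like domains. Psmd4 read 10.55, 10.78 and 10.10 on the C26 gastrocnemius arrays and 9.21, 9.11 and 9.15 on the NTB arrays. The NTB arrays lay close together (SD 0.05) with each C26 array well above them, and Psmd4 rose by 1.32 ± 0.14 (2.50-fold, adjusted p = 2.19e-05). Psmd2 read 11.95, 12.22 and 11.91 in C26 and 10.98, 10.89 and 11.14 in NTB. It rose by 1.02 ± 0.12 (adjusted p = 3.12e-05), or by 1.18 in its second set of probes. Adrm1 rose by 0.81 ± 0.14 and Psmd1 by 0.68 ± 0.11, and neither overlapped between groups.

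The lid, which cuts ubiquitin chains off the substrate, had all 8 of its genes called higher, with a median of 0.73. With the gastrocnemius arrays fitted alone 4 of the 8 were called, and 5 without C26 array 1 or without C26 array 2. Psmd11, a scaffold subunit that bridges lid and core, read 11.34, 11.07 and 10.80 on the C26 gastrocnemius arrays and 10.12, 9.67 and 10.01 on the NTB arrays. No array of one group came near the other, and Psmd11 rose by 1.14 ± 0.15 (2.21-fold, adjusted p = 0.000101). Psmd3 read 10.30, 10.11 and 9.62 in C26 and 9.11, 9.20 and 8.90 in NTB, and it rose by 0.94 ± 0.15 (adjusted p = 0.000736). Psmd8 read 11.05, 10.95 and 10.78 in C26 and 9.95, 10.02 and 9.95 in NTB. Its groups were tight and apart, and it rose by 0.95 ± 0.17 (adjusted p = 0.0018). The rest of the lid rose by less: Psmd6 by 0.84 ± 0.15, Psmd12 by 0.61 ± 0.13, Psmd13 by 0.61 ± 0.18, Psmd7 by 0.49 ± 0.13 and Psmd14, the deubiquitinase of the lid, by 0.49 ± 0.13. The call of Psmd13 was lost under 12 of 20 alternatives, that of Psmd7 under 6, that of Psmd14 under 4 and that of Psmd12 under 1. Of these 8 genes, 7 had all C26 arrays above all NTB arrays, as did 25 of the 41 and 9.95% of all genes tested. The exception was Psmd13, whose C26 array 3 (8.57) lay just under the highest NTB array (8.58).

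None of the 4 assembly chaperones was called in gastrocnemius, and their median difference was 0.02. Psmd9, which helps to assemble the base, read 7.64, 7.63 and 7.23 on the C26 arrays and 7.77, 7.64 and 7.51 on the NTB arrays, a difference of -0.14 ± 0.15 (95% interval -0.45 to 0.17). Psmd5, another chaperone of the base, read 8.07, 7.60 and 7.10 in C26 and 7.58, 7.42 and 7.46 in NTB. The C26 arrays enclosed the NTB arrays on both sides, and the difference was 0.11 ± 0.18 (-0.28 to 0.49). Psmd10, the other base chaperone, differed by 0.03 ± 0.12 (-0.23 to 0.29). Pomp, which guides the assembly of the beta ring, ranged from 9.66 to 10.94 in C26 and from 10.08 to 10.62 in NTB and differed by 0.02 ± 0.23 (-0.48 to 0.52). Counted by gene name alone, as 14 Psmd genes, 11 rose, and the 3 that did not are the chaperones Psmd5, Psmd9 and Psmd10.

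Of the 4 activators that can cap the core in place of the regulatory particle, 0 rose and 1 fell in gastrocnemius. Psme1, which forms with Psme2 the ring-shaped activator induced by interferon gamma, read 8.81, 8.32 and 8.15 on the C26 gastrocnemius arrays and 9.42, 9.44 and 9.11 on the NTB arrays. All 3 C26 arrays were below all NTB arrays, which was so for this gene alone of the 41 and for 9.41% of all genes tested, and Psme1 fell by 0.90 ± 0.15 (to 0.536 of the NTB level, adjusted p = 0.00103). Its partner Psme2 read 7.68, 7.48 and 7.61 in C26 and 7.79, 7.84 and 7.43 in NTB. These groups overlapped, and the difference was -0.10 ± 0.14 (95% interval -0.40 to 0.20), with -0.18 in a second set of probes. Psme3, a nuclear activator, read 9.43, 9.22 and 8.82 in C26 and 9.10, 8.97 and 8.92 in NTB and differed by 0.16 ± 0.16. Psme4, a large nuclear activator, differed by -0.05 ± 0.11. The inhibitor Psmf1 read 7.88, 7.68 and 7.20 in C26 and 7.35, 7.59 and 7.24 in NTB. It differed by 0.19 ± 0.16 and was not called, but it was called higher without C26 array 3 (0.39, adjusted p = 0.0418).

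**Figure D2:**
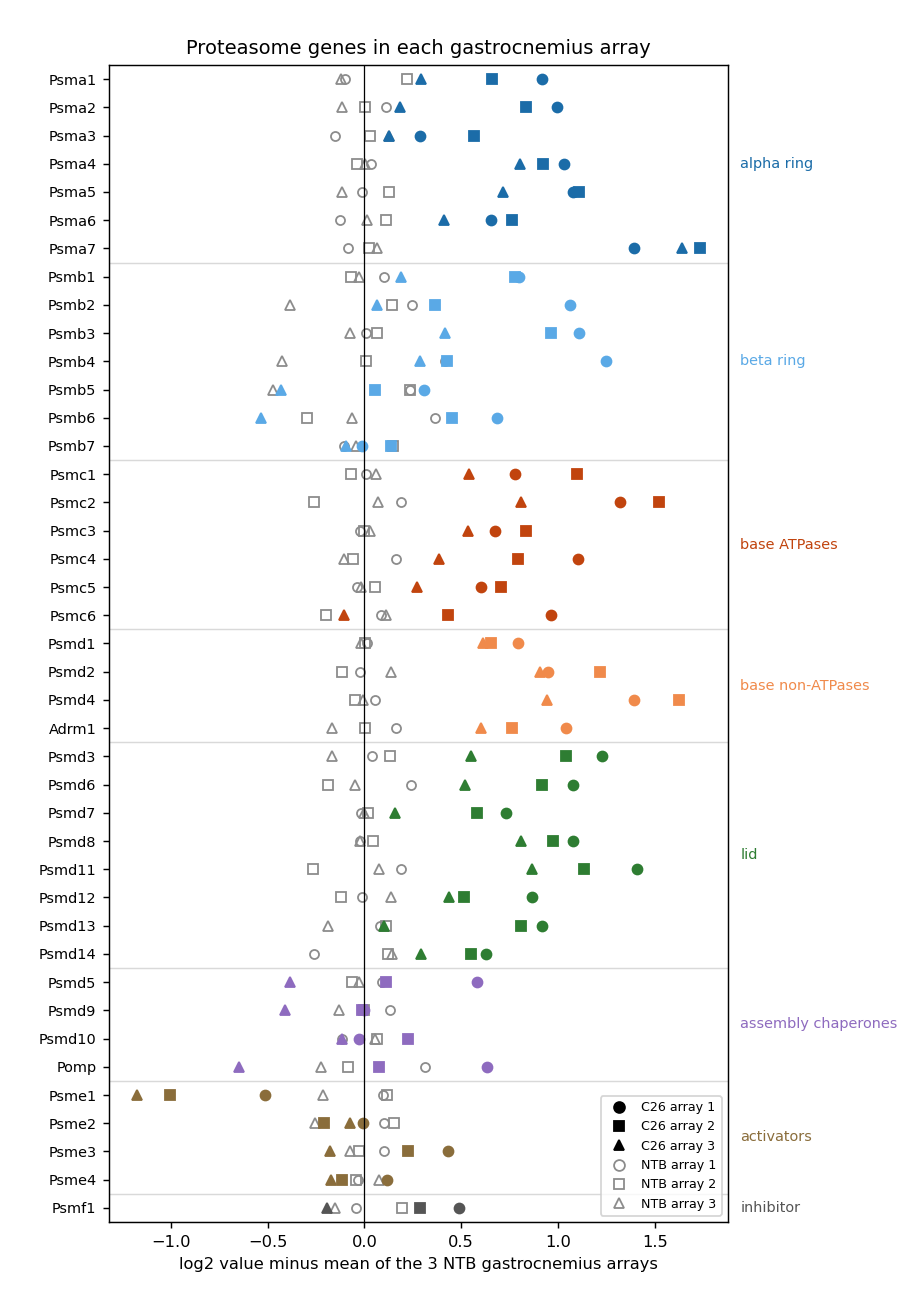
Log2 value of each of the 41 genes in each gastrocnemius array, minus the mean of the 3 NTB gastrocnemius arrays, grouped by place in the complex. Filled symbols are C26 and open grey symbols NTB arrays, with circle, square and triangle for arrays 1, 2 and 3. The filled symbols of the alpha ring, base and lid lie to the right of 0 except in Psmc6, and the triangle of C26 array 3 is the leftmost filled symbol in 39 of the 41 genes.

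The size of the rise differed between the C26 gastrocnemius arrays. The median of the 41 genes, relative to the NTB mean, was 0.80, 0.66 and 0.28 on C26 arrays 1, 2 and 3, against 0.04, 0.00 and -0.03 on the NTB arrays. Array 3 was the lowest of its group for 39 of the 41 genes, the exceptions being Psma7 and Psme2, where it was the lowest for 46.1% of all genes tested. Array 1 was the highest for 29 and array 2 for 12 of the 41. Without array 3, 31 genes were called higher, all 25 of before among them, with 17.3% of all genes called in either direction in that fit, and the median was 0.72. The genes gained were Psma3, Psmb2, Psmb4, Psmb6, Psmc6 and Psmf1. Array 3 is the array with the high T and B cell markers and the highest fat cell markers described above, and the part of those cells in its values was not tested. None of the 7 T and B cell markers and 1 of the 5 fat cell markers (Fabp4, 0.89) was called in C26 gastrocnemius. Red cell markers were higher on all 3 C26 arrays (mean 8.45 to 8.57 against 7.65 to 7.75, 3 of 5 called higher), and 4 of 6 fibroblast markers were called lower (mean 8.49 to 8.90 against 9.62 to 10.29). Of the endothelial markers 2 of 6 were called higher (Pecam1 by 0.55 and Tek by 0.58), and of the macrophage and monocyte markers 1 of 9 (Cd68 by 0.74). Of the skeletal muscle markers 2 of 9 were called lower (Mylpf, adjusted p = 0.00283, and Pvalb, -0.97), as was 1 of 9 of the heart muscle list (Actc1, -3.06). The part of these shifts in the proteasome values was not tested either.

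**Figure D3:**
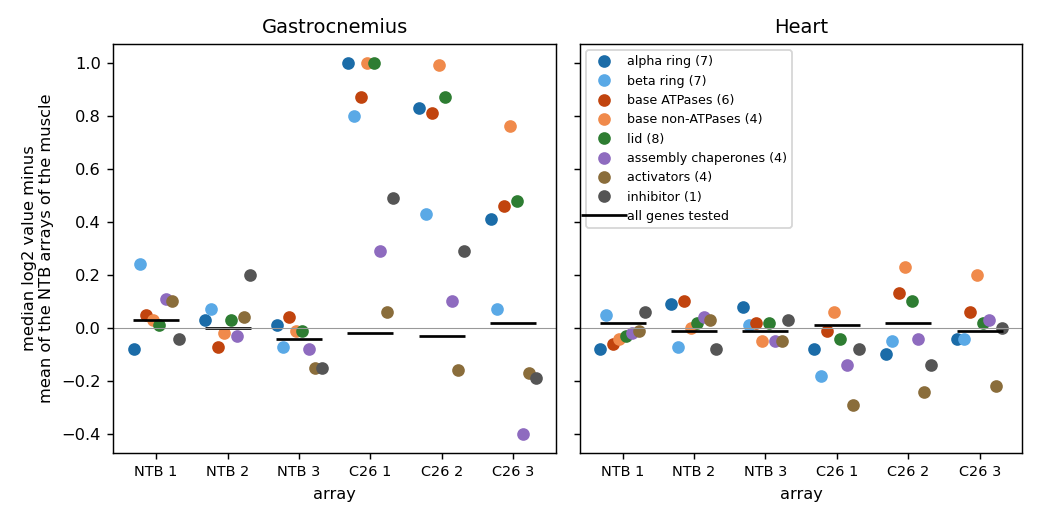
Median log2 value of each class of proteasome genes (number of genes in brackets) in every array, minus the mean of the 3 NTB arrays of that muscle, with a black dash for the median of all genes tested. In gastrocnemius the alpha ring, base and lid medians were 0.81 to 1.00 on C26 arrays 1 and 2 and 0.41 to 0.76 on array 3, and in heart all class medians lay between -0.29 and 0.23.

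Transcription of the subunit genes is known to be raised together by Nfe2l1 (NRF1), a factor that binds antioxidant response elements when the proteasome is inhibited. The promoters, 250 bases before to 50 bases after each start site, were taken from RefSeq (GRCm38.p6) and matched 35 of the 41 genes by symbol, with 38 windows. The core of the element, written TGACNNNGC and searched on both strands, was found in 7 of the 35 genes (20%; 18.4% of their windows), against 14% of 27025 genes and 12.4% of all 32851 windows. Its opening letters are shared with the AP-1 and cyclic AMP response elements, so that one stretch can match more than one of them. The 7 genes were Adrm1, Psmb5, Psmb6, Psmc6, Psmd12, Psmd9 and Psme4. They include 2 of the 21 genes that rose and had a window, and 5 of the 14 that did not rise. CCAAT, the letters read by NF-Y, was found in 13 of 35 genes (37.1%, against 41.1% of all genes), in 10 of the 21 that rose and 3 of the 14 that did not. GTAAACA, a FoxO motif, was found in 0 of 35 (4.05% of all genes), and TTCNNNGAA, a STAT motif, in Psmd2 alone (9.55% of all genes). These are matches of letters in a short window, not sites of binding. The 250 bases before the start are shown, 5′ to 3′ on the gene's strand with the match in capitals, for the 3 genes with a match and the smallest p in gastrocnemius, the ubiquitin receptor Adrm1 (chr2:180171338-180171587, plus strand), the lid subunit Psmd12 (chr11:107479278-107479527, plus strand) and the ATPase Psmc6 (chr14:45329574-45329823, plus strand), and for the catalytic subunit Psmb5 (chr14:54617996-54618245, minus strand), which was added after its values were seen. The match begins 162, 247, 227 and 47 bases before the start in turn, and in Psmd12 and Psmc6 it lies on the opposite strand.
Adrm1: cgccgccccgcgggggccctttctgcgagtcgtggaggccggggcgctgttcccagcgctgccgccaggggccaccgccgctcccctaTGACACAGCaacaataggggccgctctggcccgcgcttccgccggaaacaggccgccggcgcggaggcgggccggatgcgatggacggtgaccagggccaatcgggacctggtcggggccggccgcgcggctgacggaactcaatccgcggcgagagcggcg
Psmd12: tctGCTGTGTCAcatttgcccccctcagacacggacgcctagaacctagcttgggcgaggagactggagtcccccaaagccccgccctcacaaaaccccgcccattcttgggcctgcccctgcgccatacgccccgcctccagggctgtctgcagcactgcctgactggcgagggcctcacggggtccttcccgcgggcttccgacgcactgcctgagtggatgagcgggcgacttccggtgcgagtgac
Psmc6: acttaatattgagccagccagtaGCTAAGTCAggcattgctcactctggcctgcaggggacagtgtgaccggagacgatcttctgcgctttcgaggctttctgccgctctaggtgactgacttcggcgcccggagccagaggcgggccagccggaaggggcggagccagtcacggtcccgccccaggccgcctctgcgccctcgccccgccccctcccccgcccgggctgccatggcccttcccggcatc
Psmb5: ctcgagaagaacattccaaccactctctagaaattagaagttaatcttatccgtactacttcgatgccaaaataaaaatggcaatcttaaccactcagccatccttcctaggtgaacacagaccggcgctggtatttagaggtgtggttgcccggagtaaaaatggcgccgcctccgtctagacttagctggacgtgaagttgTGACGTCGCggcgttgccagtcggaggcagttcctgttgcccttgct

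Other genes of the pathway were described from lists of known function. The interferon-inducible and thymic catalytic subunits, which can replace the standard ones in the core, were not called in gastrocnemius (0 of 4). Psmb8 differed by -0.22 ± 0.14, Psmb9 by -0.15 ± 0.12 and Psmb10 by -0.23 ± 0.13. Of further chaperones and the small subunit Sem1, 0 of 5 measured genes were called, with a median of -0.04. Among 9 genes that control the transcription or nuclear import of proteasomes, 2 rose: Mafk, a small Maf partner of the element-binding factors, by 0.70 ± 0.15 and Akirin2, an import adaptor of proteasomes, by 0.54 ± 0.13. With the gastrocnemius arrays fitted alone neither was called. Nfe2l1 itself differed by -0.16 ± 0.13 (adjusted p = 0.585).

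Of 15 genes listed as shuttle factors and proteasome-bound enzymes 7 rose and 0 fell in C26 gastrocnemius. The ubiquitin shuttles Rad23b, Ubqln2 and Ubqln1 rose by 0.86 ± 0.13, 0.76 ± 0.16 and 0.70 ± 0.19, the proteasome-bound Txnl1 by 0.88 ± 0.13, the proteasome activator Zfand5 by 0.58 ± 0.12 and the deubiquitinase Usp14 by 0.57 ± 0.14. With the gastrocnemius arrays fitted alone Ubqln1, Ubqln2, Zfand5 and Usp14 were not called. The call of Ubqln1 was lost under 5 of 20 alternatives. The largest rise of this list was that of Tbc1d15 (1.24 ± 0.11), which is known as a Rab GTPase-activating protein rather than as a factor of the kind the list is named for. Of 9 genes of the segregase that pulls ubiquitinated proteins out of complexes and membranes 5 rose. They were the cofactors Nploc4 (1.23 ± 0.10), Ubxn4 (1.16 ± 0.12), Nsfl1c (0.63 ± 0.11) and Faf1 (0.50 ± 0.15, adjusted p = 0.0482, a call lost under 13 of 20 alternatives) and the chain-elongating ligase Ube4b (0.62 ± 0.14, a call lost under 1 of 20), while the segregase itself, Vcp, differed by 0.25 ± 0.12 (adjusted p = 0.233). The polyubiquitin gene Ubb rose by 0.59 ± 0.09. In heart 0 of the 48 genes of these lists were called.

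In C26 heart limma called 0 of the 41 proteasome genes higher and 0 lower, where 2.13% and 1.09% of all genes tested were called. At an unadjusted p under 0.05, 0 were higher and 3 lower (Psma4, Psme1 and Psme4), against 6.78% and 5.3% of all genes. The median difference of the 41 was -0.05 and their range was -0.36 to 0.20. The upper end of the 95% interval was 0.38 for Psma7 and 0.51 for Psmd4, below the rises of these genes in gastrocnemius. The NTB and C26 arrays did not overlap in 2 genes that were higher in C26 (Psma7 and Psmd4) and in 7 that were lower, against 14.2% and 13.4% of all genes. The largest difference was that of the activator Psme4, which read 10.26, 10.25 and 10.23 in C26 heart and 10.60, 10.71 and 10.52 in NTB heart. Its groups were apart, but the difference of -0.36 ± 0.11 had an adjusted p of 0.0907. Psme1 read 9.55, 9.44 and 9.55 in C26 and 9.92, 9.79 and 9.85 in NTB, and its difference of -0.34 ± 0.15 had an adjusted p of 0.379. With the hearts fitted alone both were called lower, and 11.4% of all genes were called in that fit. Psmd8 (-0.35 ± 0.17) was not called, and C26 arrays 1 and 3 were at 8.80 and 8.87 and array 2 at 9.54. The catalytic subunits Psmb5, Psmb6 and Psmb7 differed by -0.02 ± 0.20, -0.10 ± 0.25 and -0.22 ± 0.13. Of 9 macrophage and monocyte markers 5 were called higher in C26 heart (mean 7.84 to 7.97 against 6.98 to 7.13), beside the absence of calls among the proteasome genes.

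**Figure D4:**
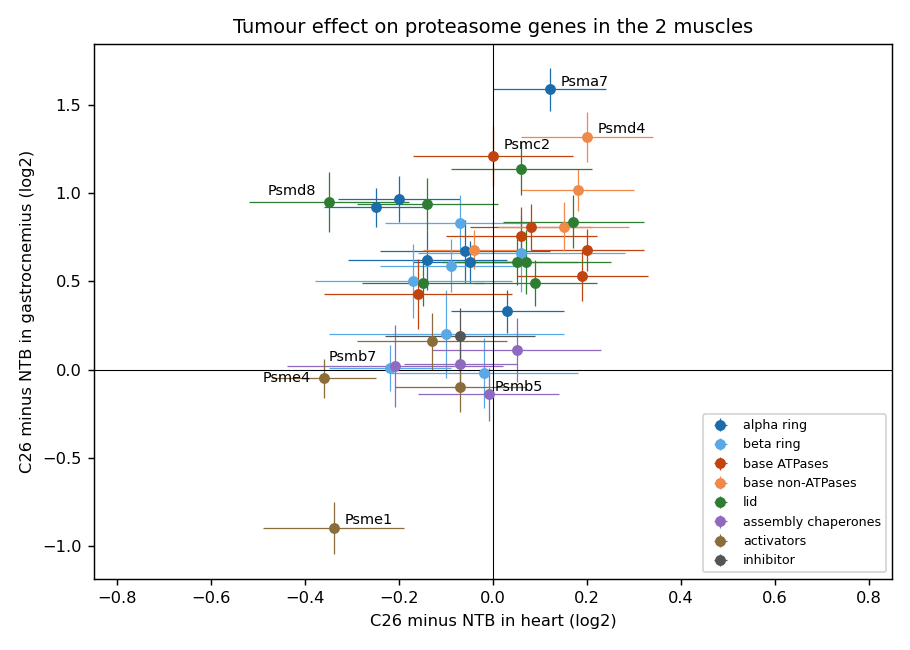
C26 minus NTB log2 difference of the 41 genes in gastrocnemius (vertical axis) against heart (horizontal axis), coloured by class, with bars of 1 SE. The points spread from -0.90 to 1.59 along the gastrocnemius axis and from -0.36 to 0.20 along the heart axis.

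The C26 effect was larger in gastrocnemius than in heart for 13 of the 41 genes by the test of the difference, and smaller for 0, where 1.96% and 2% of all genes tested were called. They came from the alpha ring (Psma4, Psma5, Psma6 and Psma7), the beta ring (Psmb3), the base (Psmc1, Psmc2, Psmd1, Psmd2 and Psmd4) and the lid (Psmd3, Psmd8 and Psmd11). The calls of Psma6, Psmb3 and Psmc1 were lost under 13, 11 and 11 of 19 alternatives and that of Psmd1 under 2. Psma7 read 8.98 to 9.07 on the 3 C26 heart arrays and 8.97, 8.73 and 8.98 in NTB heart. The C26 arrays were just above the NTB arrays, and the effects differed by 1.46 ± 0.17 (gastrocnemius minus heart, adjusted p = 0.000137). Psma4 read 8.62, 8.72 and 8.83 in C26 heart and 9.01, 8.86 and 9.06 in NTB heart, below NTB on every array where it was above NTB in gastrocnemius. Its effects differed by 1.17 ± 0.16 (adjusted p = 0.000432). Psma5 read 7.26, 7.35 and 7.46 in C26 heart and 7.47, 7.66 and 7.54 in NTB heart, also just below, and its effects differed by 1.17 ± 0.19 (adjusted p = 0.00203). The second set of Psma5 probes gave 0.98 ± 0.27 (adjusted p = 0.131 when all rows were tested). Psmd4 read 7.67, 7.77 and 7.75 in C26 heart and 7.50, 7.57 and 7.52 in NTB heart. Here C26 was higher on every array in both muscles, and the effects still differed by 1.12 ± 0.20 (adjusted p = 0.00539). Psmd8, with the spread in C26 heart given above, differed by 1.31 ± 0.25 (adjusted p = 0.00694) and read 9.15, 9.52 and 9.60 in NTB heart. Psmd11 read 8.84, 8.98 and 8.76 in C26 heart and 8.76, 8.81 and 8.83 in NTB heart, which overlap, and its effects differed by 1.08 ± 0.21 (adjusted p = 0.00795). Psmd14 had all C26 arrays above NTB in gastrocnemius and all below in heart, and the difference of its effects was not called without the replicate block (0.64 ± 0.18, adjusted p = 0.0623) and was called with it (adjusted p = 0.0464). The fall of Psme1 was not called as different between the muscles (-0.56 ± 0.22, adjusted p = 0.213). With the replicate number as a block 22 genes were called, where 7.06% of all genes were called in either direction. Without C26 gastrocnemius array 3 there were 26, where 8.24% of all genes were called, against 3.96% in the reported fit. Each time all 13 were among them. The 9 genes gained with the block were Psma1, Psma2, Psmb1, Psmb2, Psmb4, Psmc4, Adrm1, Psmd6 and Psmd14, with adjusted p values from 0.0161 for Psmc4 to 0.0464 for Psmd14. The difference in gastrocnemius exceeded that in heart for 37 of the 41 genes, and for 9405 of the 19434 genes tested.

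Without tumour, the proteasome genes also stood at different levels in the muscles. In NTB heart 8 of the 41 were higher and 27 lower than in NTB gastrocnemius, where 24.7% of all genes tested were higher and 15.8% lower, and the median was -0.56 (NTB heart minus NTB gastrocnemius) against 0.05 for all genes. All 6 ATPases and all 4 other base genes were lower in heart, as were 6 of 7 alpha ring and 6 of 8 lid genes. Psmc5 was at 7.93, 7.82 and 7.41 in NTB heart and at 10.22, 10.31 and 10.24 in NTB gastrocnemius, and it was lower in heart by the widest margin of the 41 (-2.53 ± 0.14, adjusted p = 2.35e-09). The next were Pomp (-1.85 ± 0.23), Psmd4 (-1.63 ± 0.14) and Psmc2 (-1.61 ± 0.17).

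The beta ring differed between muscles in both directions. The catalytic subunit Psmb5 read 11.42, 11.13 and 11.29 in NTB heart and 9.54, 9.54 and 8.83 in NTB gastrocnemius. The hearts were far above, by 1.98 ± 0.20 (3.93-fold, adjusted p = 9.03e-07). Psmb7 was lower in heart by contrast, at 9.83, 9.51 and 9.67 against 11.01, 11.26 and 11.07 (-1.44 ± 0.13, adjusted p = 2.56e-07), and Psmb6 was lower by a smaller margin (-0.69 ± 0.25, adjusted p = 0.0348). The structural subunits Psmb3 and Psmb2 were higher in heart (1.53 ± 0.16 and 1.27 ± 0.21), as were the inhibitor Psmf1 (1.15 ± 0.16), the alpha subunit Psma1 (0.81 ± 0.17) and, by less, Psme2, Psme1 and Psmd14 (0.61, 0.53 and 0.36). The call of Psmd14 was lost under 7 of 18 alternatives and that of Psmb6 under 6.

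**Figure D5:**
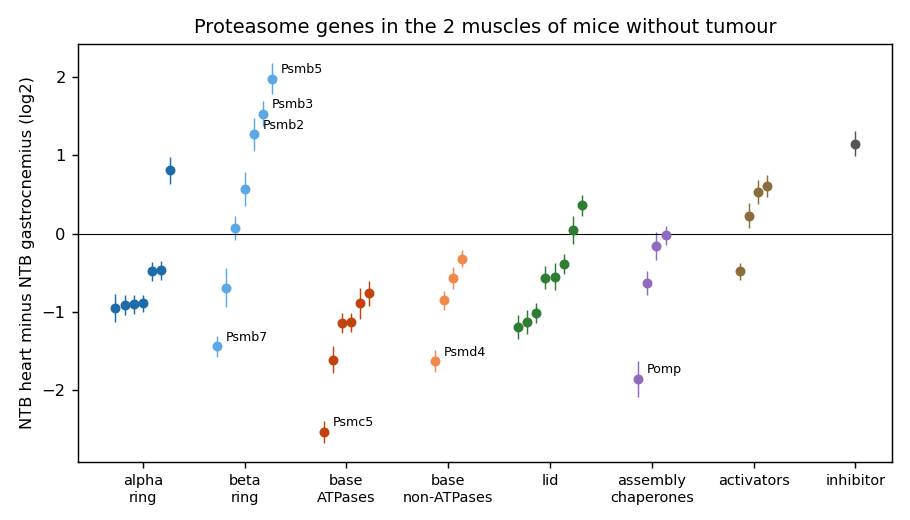
NTB heart minus NTB gastrocnemius log2 difference of the 41 genes by class, with bars of 1 SE, and genes within a class ordered by value. All base genes lie below 0, and the beta ring runs from -1.44 (Psmb7) to 1.98 (Psmb5).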

How the data were processed

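RNA (250 ng per sample) was hybridised to 1-colour Affymetrix MoGene-1_0-st-v1 arrays, per the labels' protocols. The deposited log2 values were produced by the authors with RMA (background correction, normalization between arrays, summary of probes), per the submitters' processing notes, which list RMA, GCOS, Partek and mm8 with no version and no role. That they are log2 was read from their range. The sources used here do not say whether the 12 arrays went through RMA as 1 set. Another deposited table gave the gene symbols, cut after 7 characters. Its 12 value columns were left out because their names match no sample title, and the unexplained codes in those names could not be tested as batches.

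Of 35556 rows 21875 were named with 19434 genes, through the GRCm38.p6 gene table where a symbol was cut. A gene with several rows was represented by the row of highest mean. In R 4.3.3, limma 3.58.1 fitted 4 group means to all 12 arrays (residual degrees of freedom 8, median prior 6.83) with a mean-variance trend, two-sided tests, Benjamini-Hochberg adjustment over the 19434 genes, a threshold of 0.05 and no filter on dim rows. The code was tested on simulated data. The number of arrays limits the precision.

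The 41 genes, the classes and the lists were chosen with earlier results of these data known. All 41 are named. Array values are given for the 2 genes of each class with the smallest p in gastrocnemius, up to 6 genes whose effect differed between muscles, every gene that fell, Psmb5, Psmb6, Psmb7, Psme1 and Psme2. Of the pathway lists the called genes, Nfe2l1, Psmb8, Psmb9 and Psmb10 are named, except for a result that is not reported here. Promoters are shown for up to 3 genes with a match and the smallest p. Vcp, Psmb5's promoter and other array values were added after they were seen.

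Same-numbered C26 and NTB gastrocnemius arrays deviated together from their group means over all genes (r = 0.31, 0.33 and 0.50). In heart they did not (r = 0.09, -0.04 and 0.02). The titles give the numbers without saying what they stand for, so whether these arrays were paired is not known. The number was used as a block in an alternative fit. The fit without this block is reported, and the blocked value stands beside results whose call it changed. The block lies within a muscle, so it was used for C26 against NTB and for the difference of these effects, and not between the muscles of NTB mice.

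Alternatives were quantile normalization, centring on the array median, no trend, each muscle alone, genes at or above the median level, the mean of a gene's rows, all rows tested, the replicate block, and each array left out.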

Additional observations from a re-analysis of the deposited data

Results flagged for a closer look

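The C26 effect (C26 minus NTB, log2) was larger in gastrocnemius than in heart for 13 proteasome genes by the limma test of the difference, at an adjusted p under 0.05 over all genes. The muscles came from different cohorts, and muscle and cohort cannot be told apart. In the alpha ring the differences of effects were 1.46 for Psma7, 1.17 for Psma4, 1.17 for Psma5 and 0.65 for Psma6, and in the beta ring 0.90 for Psmb3. In the base they were 1.21 for Psmc2, 1.12 for Psmd4, 0.85 for Psmd2, 0.73 for Psmc1 and 0.72 for Psmd1. In the lid they were 1.31 for Psmd8, 1.08 for Psmd11 and 1.08 for Psmd3. The calls of 9 of the 13 were kept under each of the 19 alternatives run for this comparison. Those of Psma6, Psmb3, Psmc1 and Psmd1 were lost under 13, 11, 11 and 2 of the 19. Among those kept, Psma5 and Psmd2 had a second set of probes. With all rows tested by limma, that of Psma5 was not called (0.98 ± 0.27, adjusted p = 0.131). That of Psmd2 was called (1.02, adjusted p = 0.00679).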

How the results depend on the processing

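Of the 25 genes that rose in C26 gastrocnemius, 15 were called under each of the 20 alternatives, and 10 were lost under 1 or more, all 10 of them with each muscle fitted alone. The count was 15 with each muscle fitted alone and 18 to 31 with 1 array left out, 18 without C26 gastrocnemius array 2 and 31 without array 3. The count of genes that fell was 1 throughout, and the median ranged from 0.48 to 0.72 with 1 array left out. In heart the count called lower went from 0 to 1 with quantile normalization (Psme4), to 2 with each muscle alone (Psme1 and Psme4) and to 0 to 1 with 1 array left out, Psme4 being called without C26 gastrocnemius array 1 or 3. The heart median was -0.05 to 0.00 with 1 array left out and changed sign without C26 heart array 1. The count of larger effects in gastrocnemius went from 13 to 21 with quantile normalization and 22 with the replicate block. It was 26 without C26 gastrocnemius array 3 and 9 to 12 with any other array left out. Of all genes, 3.96% were called in either direction in the reported fit. With quantile normalization, the block and that array left out the share was 6.25%, 7.06% and 8.24%. The count of smaller effects was 0 to 1, Psme1 being called without C26 gastrocnemius array 1. The replicate block was not run for NTB heart against NTB gastrocnemius, since each block lies within 1 muscle. It changed no call of the 41 genes in heart, those of Psmb2 and Psmb4 in gastrocnemius, and those of 9 genes in the difference between muscles. The causes of these changes were not tested.

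The sign changes were all of differences that were not called, and, apart from 4 noted at the end, they came from leaving out 1 array. Over those fits, in gastrocnemius, Psmb5 ranged from -0.26 (without NTB array 3) to 0.18, Psmb6 from -0.04 to 0.56, Psmb7 from -0.05 to 0.09, Psmd5 from -0.14 to 0.35, Psmd10 from -0.07 to 0.10, Pomp from -0.29 to 0.35 and Psme4 from -0.14 to 0.01. The highest value was that without C26 array 3 for each of these but Psmb7. In heart Psma1 ranged from -0.24 to 0.01, Psma2 from -0.14 to 0.02, Psma3 from -0.01 to 0.08, Psmb3 from -0.14 to 0.05, Psmb5 from -0.09 to 0.05, Psmc2 from -0.08 to 0.05, Psmd1 from -0.10 to 0.08, Psmd9 from -0.11 to 0.08, Psme2 from -0.20 to 0.02 and Psme3 from -0.22 to 0.02. With quantile normalization Psmd10 in gastrocnemius went from 0.03 to 0.00 (below 0 before rounding) and Psmc2 in heart to -0.02, and with arrays centred on the median Psma3 and Psmc2 in heart went to -0.01 and -0.04. With 3 arrays a group, even differences well above their SE could go uncalled. Examples by limma were Psmb4 in gastrocnemius (0.66 ± 0.22, adjusted p = 0.0712) and Psme4 in heart (-0.36 ± 0.11, adjusted p = 0.0907). A gene that was not called was therefore not shown to be unchanged.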
